A study of Mus musculus with 10 samples.

Results

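The growth hormone receptor and the insulin-like growth factor (IGF) axis were examined in the prefrontal cortex of Arid1b-haploinsufficient mice, because loss of 1 copy of ARID1B has been linked to a shortage of growth hormone and IGF1. The genes were taken by symbol from a written list and not by their values. Earlier results of these data were known when the list was chosen. The list held 10 genes, namely the ligands Igf1 and Igf2, the receptors Igf1r, Igf2r and Ghr, and the IGF-binding proteins Igfbp2, Igfbp3, Igfbp4, Igfbp5 and Igfbp7. All 10 are annotated as protein-coding on GRCm38 (GENCODE M21). All 10 were present among the 18216 genes of the table, and all 10 passed the filter on low values.

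RNA sequencing had been carried out on prefrontal cortex from 10 male C57BL/6N mice at postnatal day 10 (P10), with 1 library per mouse. There were 5 Arid1b+/– mice (HT1 to HT5), with 1 intact and 1 truncated copy of Arid1b, and 5 wild-type mice (WT1 to WT5). The mutation is germline, so every cell of an HT mouse carries it, and all HT mice come from 1 line made by genome editing, with the truncating change in exon 5. The labels give no drug treatment for any of the 10 mice. In bulk tissue, fewer cells of a type and less RNA per cell cannot be told apart.

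IGF1 and IGF2 are secreted growth factors that signal through the IGF1 receptor, a tyrosine kinase that engages the PI3K, AKT and mTOR pathway. The IGF2 receptor binds IGF2 and carries it to lysosomes, and growth hormone acts through its own receptor and JAK2 to STAT5, which drives Igf1 transcription, best known from liver. Binding proteins hold IGFs in tissue fluid and can block or prolong their action. In the postnatal brain Igf1 is made by neurons, microglia and other cells, whereas Igf2 and Igfbp2 are prominent in the meninges, choroid plexus and vessels.

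Values are normalised counts, that is, gene-level read estimates divided by a size factor for each library. Differences are HT minus WT on the scale of log2(normalised count + 1), tested with limma over 16781 genes, with Benjamini-Hochberg adjustment over all of them. The table does not give the sequencing depth. Its column totals lay between 31106330 and 32106791, and correlations between libraries lay between 0.982 and 0.989. HT2 stood apart, with 8.43% of its total from the mitochondrial genome against 5.15% to 6.76% in the other 9 mice, and with the highest summed level of astrocyte, microglial, endothelial and mural markers. All 7 markers of cortical excitatory neurons were present, with summed levels of 52530 to 69910 in HT and 59500 to 72440 in WT. Nothing in the labels says whether mice shared a litter or a sequencing run, and the p-values measure the spread between these mice.

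Arid1b itself was measured first. Its normalised count was 1938, 1767, 1987, 1849 and 1929 in HT1 to HT5, and 3018, 2807, 2775, 2949 and 2662 in WT1 to WT5. Every HT mouse lay below every WT mouse, with an average in HT equal to 66.6% of that in WT and a log2 difference of -0.58 (SE 0.05, adjusted p = 9.96e-05).

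None of the 10 IGF axis genes passed an adjusted p of 0.05, a threshold that 3 of the 16781 genes tested passed (0.0179%). The smallest adjusted p among the 10 was 0.319 and the largest was 0.988. Igfbp3 and Igfbp5, 2 of the 10, had an unadjusted p under 0.05, against 9.23% of all genes tested in either direction. Both were higher in HT, a direction in which 4.71% of all genes had such a p. No test of this count was run. The median log2 difference was 0.01 over the 10 genes, 5 of which were higher and 5 lower in HT, and -0.004 over all genes tested.

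**Figure D1:**
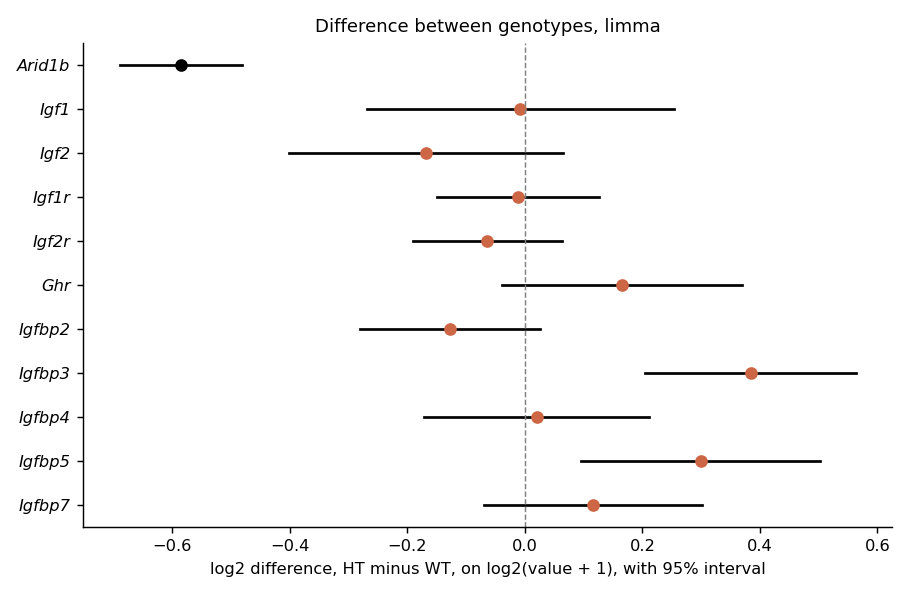
Difference between genotypes for Arid1b and the 10 IGF axis genes, as HT minus WT on the scale of log2(normalised count + 1) with the 95% interval from limma (5 mice per group). The intervals of Igfbp3 and Igfbp5 lie above 0, that of Arid1b lies below 0, and those of the other 8 genes include 0.

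Igfbp3 (ENSMUSG00000020427, chr11:7206086-7213923 on the minus strand of GRCm38) encodes the main carrier of IGFs in serum, which also binds them at the cell surface in tissues. Its normalised count was 530.5, 626.1, 534.6, 577.1 and 675.1 in HT1 to HT5, and 408.8, 458, 431.7, 439.6 and 513.6 in WT1 to WT5. Every HT mouse lay above every WT mouse, the closest being HT1 at 530.5 and WT5 at 513.6. Of all genes tested, 0.703% had groups that did not overlap in this direction, and Igfbp3 was 1 of 10 in the axis. The HT mean was 589 ± 61.9 (SD, n = 5) and the WT mean 450 ± 39.5 (SD, n = 5). The log2 difference was 0.38 (SE 0.08, 95% interval 0.20 to 0.56), a fold of 1.3 with an interval of 1.15 to 1.48. The unadjusted p of limma was 0.000449, rank 23 among the 16781 genes, and the adjusted p was 0.319. Igfbp3 therefore did not pass the threshold across all genes. Without HT2 and HT5 its log2 difference was 0.28, with an unadjusted p of 0.00475 and an adjusted p of 0.681. These were the mice with the highest Igfbp3, so leaving them out lowers the difference. HT5, unlike HT2, was not set apart by its mitochondrial share (6.61%).

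Igfbp5 (ENSMUSG00000026185) encodes one of the most conserved of the binding proteins, which attaches to the extracellular matrix. The normalised count was 5649, 6369, 5733, 6246 and 8119 in HT1 to HT5, and 5583, 5156, 4606, 5901 and 4748 in WT1 to WT5. All 5 HT mice were above the WT mean, HT5 was the highest of the 10 mice, and the groups overlapped because WT4 exceeded HT1 and HT3. Means were 6423 ± 998 in HT and 5199 ± 547 in WT (SD, n = 5 each). The log2 difference was 0.30 (SE 0.10, 95% interval 0.10 to 0.50), with an unadjusted p of 0.00732 and an adjusted p of 0.473 by limma. Without HT5 it was 0.21, and without both HT2 and HT5 it was 0.18 with an unadjusted p of 0.0354. HT5 and HT2 also had the highest Igfbp5 values, so leaving them out lowers the difference.

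Summed markers of other cell types were set beside both genes, and their counts at an unadjusted p under 0.05 are to be read against 9.23% of all genes in either direction and 4.71% higher in HT. Astrocyte markers summed to 156100 to 199200 in HT and 142600 to 168400 in WT, with 5 of 8 markers at an unadjusted p under 0.05, all higher. Mural markers summed to 9789 to 13310 in HT and 10060 to 11070 in WT (2 of 8 at such a p, both higher). Microglial markers summed to 9668 to 13500 in HT and 9411 to 10850 in WT (2 of 8, both higher). Endothelial markers summed to 6374 to 9043 in HT and 6480 to 7124 in WT (0 of 8). Oligodendrocyte-lineage markers ran from 58830 to 81650 in HT and from 34300 to 83870 in WT (1 of 8, higher). Striatal markers ran from 5031 to 15420 in HT and from 3843 to 12230 in WT (0 of 8). Of the 8 striatal markers, 7 had a higher level in HT, and the middle difference of the list was 0.54 (log2). The striatal sum was low in HT5 (5031), WT3 (3843) and WT5 (4317), and at least 10120 in every other mouse. HT5 also had the highest Igfbp5, and WT3 and WT5 the lowest Igfbp5 values (4606 and 4748). Igfbp3 was highest in HT5 too, but WT5 had the highest Igfbp3 in WT. Blood markers summed to 6417 to 9348 in HT and 7022 to 11300 in WT, with 5 of 5 lower in HT (1 at such a p). Meningeal and fibroblast markers summed to 3764 to 6417 in HT and 4286 to 5405 in WT (1 of 10 at such a p, higher). Within HT, the meningeal sum, Igfbp3 and Igfbp5 were each highest in HT5, followed by HT2 and HT4, and lower in HT1 and HT3. Igfbp3 did not keep this order in WT, where WT2 had the lowest sum (4286) and the second highest Igfbp3. HT1 and HT3 had sums below every WT mouse and Igfbp3 above every WT mouse. Igfbp5 in WT was highest in WT4 and then WT1, which also had the highest WT sums (5405 and 5011). WT2 exceeded WT3 and WT5 in Igfbp5, against the order of the sums. The part of these cell types in the Igfbp3 and Igfbp5 differences was not tested.

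The 250 bases before the RefSeq transcription start of Igfbp3 and Igfbp5 are shown because these were the 2 genes with an unadjusted p under 0.05. They are from RefSeq on GRCm38.p6, minus strand, at chr11:7213924-7214173 for Igfbp3 and chr1:72874866-72875115 for Igfbp5, and capitals mark the letters TATATA. The RefSeq start of Igfbp5 lies inside its GENCODE gene model, so the end of its window overlaps that gene.
Igfbp3: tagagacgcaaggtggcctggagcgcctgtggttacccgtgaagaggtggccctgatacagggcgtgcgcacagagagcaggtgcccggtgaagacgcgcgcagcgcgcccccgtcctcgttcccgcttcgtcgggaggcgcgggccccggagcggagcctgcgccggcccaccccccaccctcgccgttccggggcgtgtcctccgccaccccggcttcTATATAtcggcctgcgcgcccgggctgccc
Igfbp5: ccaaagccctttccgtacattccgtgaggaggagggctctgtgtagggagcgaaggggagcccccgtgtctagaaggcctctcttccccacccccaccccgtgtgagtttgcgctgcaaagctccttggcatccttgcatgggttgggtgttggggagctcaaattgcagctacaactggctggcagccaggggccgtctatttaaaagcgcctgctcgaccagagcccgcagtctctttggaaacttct

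Over the 300 bases that add the first 50 of the transcript, the Igfbp3 promoter was 71.7% G and C with 37 CpG sites, and the Igfbp5 promoter was 56.3% with 10, beside a median of 52.7% over 32851 mouse promoters. TATATA, searched on both strands, was in the Igfbp3 window and in 5.7% of all promoters. TATAAA (13.6% of all promoters) and the GC box GGGCGG (35.7%) were found in neither window. These are descriptions of the sequence, and the 2 windows had no motif of the 3 in common. All 10 genes had a promoter entry in the table.

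The other binding proteins gave smaller differences. Igfbp2 encodes a carrier prominent in the developing brain. Its normalised count was 1255, 1651, 1215, 1385 and 1416 in HT1 to HT5, and 1526, 1482, 1492, 1534 and 1481 in WT1 to WT5. The WT mice lay within a narrow band (1503 ± 25.2, SD, n = 5), and 4 of 5 HT mice were below all of them, whereas HT2 was the highest of the 10 (HT 1384 ± 172). The log2 difference was -0.13 (SE 0.07, 95% interval -0.28 to 0.03, unadjusted p = 0.096, adjusted p = 0.584). This value depended on single mice. It was -0.08 without HT3 (unadjusted p = 0.253) and -0.09 without HT1 (unadjusted p = 0.223). Without HT2 it was -0.19 (unadjusted p = 0.00306, adjusted p = 0.546), and without HT2 and HT5 together it was -0.23 (unadjusted p = 0.000997, adjusted p = 0.556).

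Igfbp7 (chr5:77349240-77408041, minus strand) encodes a low-affinity binding protein of vessel walls. It ranged from 757.1 in HT1 to 1040 in HT2 among HT mice and from 719.5 to 852.8 among WT mice, which overlapped, with a log2 difference of 0.12 (SE 0.09, 95% interval -0.07 to 0.30, unadjusted p = 0.203). Without HT2 it was 0.05, and without HT2 and HT5 it was 0.01. Igfbp4 (chr11:99041244-99054392, plus strand) encodes an inhibitory carrier that is cut by the protease PAPP-A. Its range was 2614 to 3304 in HT and 2502 to 3463 in WT, the HT range lying inside the WT range, and the log2 difference was 0.02 (SE 0.09, 95% interval -0.17 to 0.21). For Igfbp4 the data leave room for folds between 0.89 and 1.16. Igfbp2 and Igfbp5, which were lower and higher in HT, respectively, are neighbours on chromosome 1, at chr1:72824503-72852474 on the plus strand and chr1:72857932-72874884 on the minus strand (GRCm38).

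**Figure D2:**
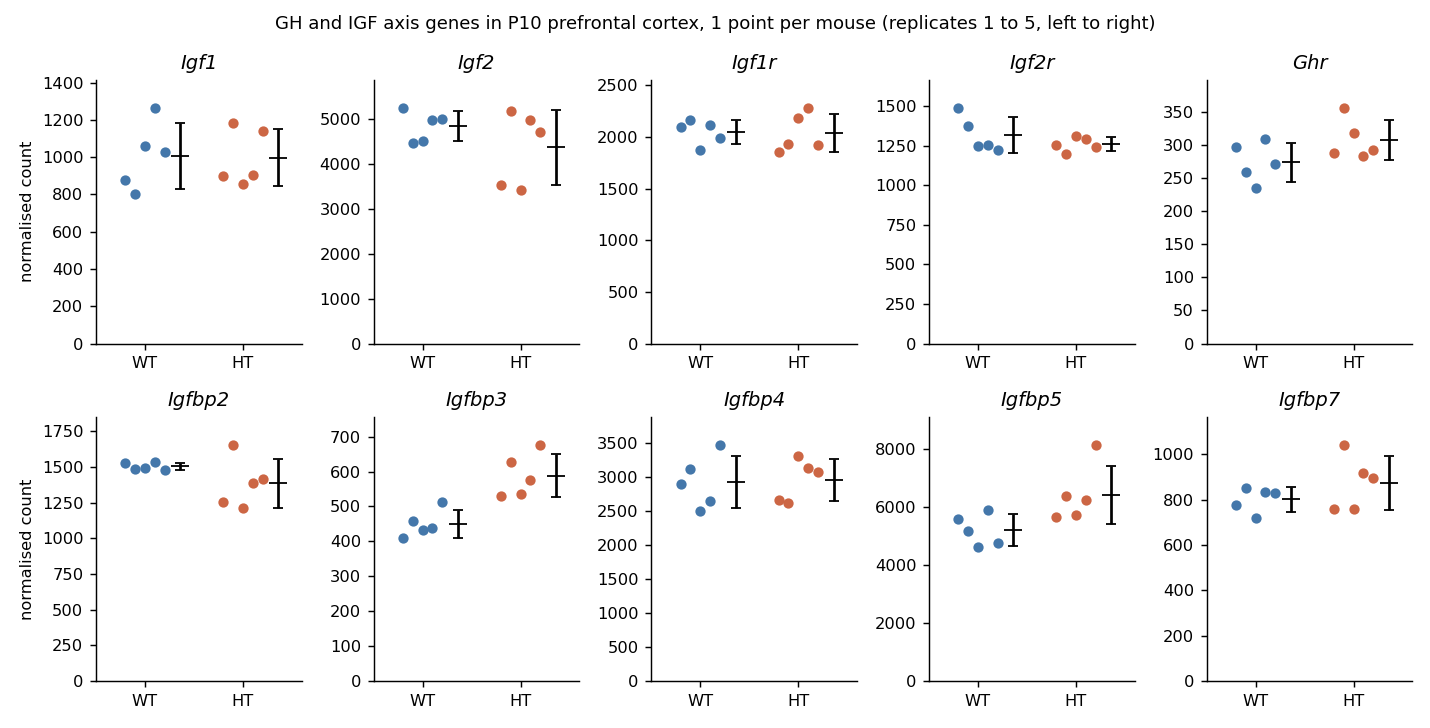
Normalised count of the 10 IGF axis genes in each mouse, with WT in blue and HT in orange, points in replicate order from 1 to 5, and bars for the mean and SD (n = 5 each, all axes from 0). Igfbp3 is the gene whose groups do not overlap, and the lowest Igf2 and Igfbp2 values belong to HT1 and HT3.

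Of the ligands, Igf1 (chr10:87858265-87937042, plus strand) had group means that differed by far less than the spread between mice. Its normalised count was 897.4, 1184, 857.4, 905.9 and 1141 in HT1 to HT5, and 877.7, 802.5, 1058, 1264 and 1026 in WT1 to WT5. The groups overlapped fully, with the lowest and the highest value both in WT. Means were 997 ± 153 in HT and 1006 ± 179 in WT (SD, n = 5 each), and the log2 difference was -0.01 (SE 0.12, unadjusted p = 0.951, adjusted p = 0.988 by limma). The 95% interval of the fold, 0.83 to 1.19, gives the changes that these 10 mice do not exclude. Without HT2 and HT5 the log2 difference was -0.16 (unadjusted p = 0.192). Igf1 had the widest spread of the axis, with a within-group SD of 0.24 on the log2 scale.

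Igf2 (chr7:142650766-142666816, minus strand), an imprinted gene expressed from the paternal copy in most tissues, gave 3530, 5188, 3426, 4978 and 4709 in HT1 to HT5, and 5244, 4475, 4520, 4969 and 5007 in WT1 to WT5. HT1 and HT3 were the 2 lowest mice, and the other 3 HT mice lay within the WT range. Means were 4366 ± 829 in HT and 4843 ± 333 in WT (SD, n = 5 each). The log2 difference was -0.17 (SE 0.11, 95% interval -0.40 to 0.07, unadjusted p = 0.144, adjusted p = 0.616), and it depended on single mice. It was -0.10 without HT1 (unadjusted p = 0.364), -0.09 without HT3 (unadjusted p = 0.393), and -0.24 without HT2 (unadjusted p = 0.04, adjusted p = 0.681). The Igf2 value is uncertain, because 61.9% of the 31-base words in its transcripts also occur in those of the overlapping read-through gene Gm49394, which was not analysed here.

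The summed level of meningeal and fibroblast markers was set beside Igf2 and Igfbp2. It was 4106 and 3764 in HT1 and HT3, the 2 lowest of the 10 mice, between 5854 and 6417 in the other 3 HT mice, and between 4286 and 5405 in WT. Igf2 and Igfbp2 were lowest in the same 2 mice. For Igfbp2 the other mice did not keep this order, since HT4 and HT5 had marker sums above every WT mouse and Igfbp2 values below every WT mouse. Igf2 was next lowest in WT2 (4475) and WT3 (4520), which also had the next lowest sums (4286 and 4593). HT5, with the highest sum, had an Igf2 of 4709, within the WT range. Of the 10 markers, 1 had an unadjusted p under 0.05 (higher in HT), and all 10 were present, among them Col1a2 at a mean of 1571 in HT and 1557 in WT and Dcn at 461.3 and 480.9. Choroid plexus markers were low, with the 5 that were present summing to 139.4 to 174.1 in HT and 113.8 to 172.9 in WT, and Ttr, Folr1 and Otx2 were not analysed here. The part of meningeal tissue in the Igf2 and Igfbp2 values was not tested.

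**Figure D3:**
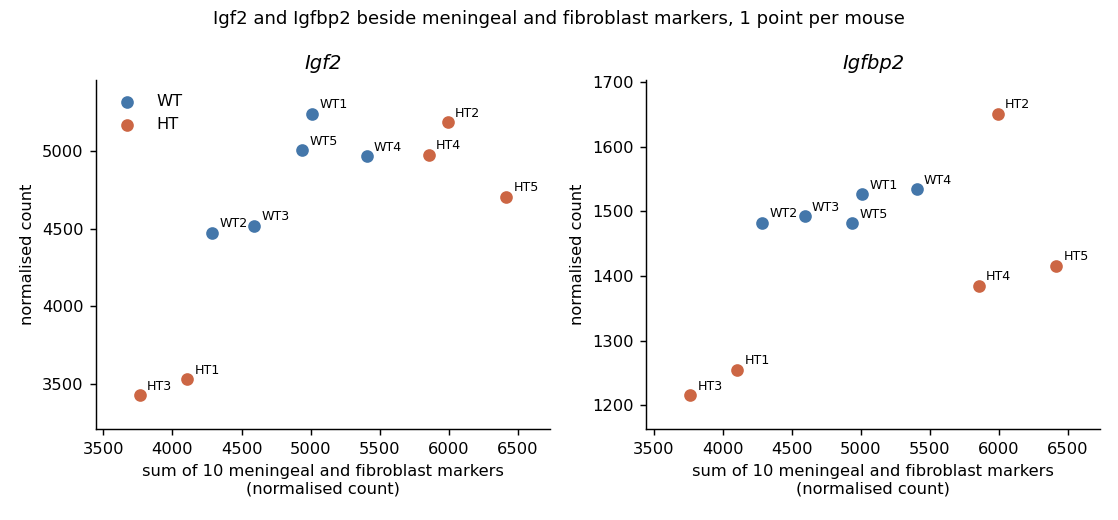
Normalised count of Igf2 (left) and Igfbp2 (right) in each mouse against the summed normalised count of 10 meningeal and fibroblast markers, with WT in blue and HT in orange. HT1 and HT3 have the lowest marker sums, 4106 and 3764, and the lowest values of both genes, whereas HT4 and HT5 have high sums and Igfbp2 values below those of every WT mouse.

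Of the receptors, Igf1r and Igf2r had differences near 0 and Ghr was higher in HT on average, none past the threshold. Igf1r (chr7:67952827-68233668, plus strand), the signalling receptor, gave 1854, 1934, 2187, 2280 and 1924 in HT1 to HT5, and 2100, 2166, 1872, 2112 and 1990 in WT1 to WT5. The lowest and the highest mouse were both HT, and the log2 difference was -0.01 (SE 0.06, 95% interval -0.15 to 0.13, unadjusted p = 0.862), which allows folds of 0.90 to 1.09. Igf2r (chr17:12682406-12769664, minus strand), the IGF2 clearance receptor, gave 1251, 1196, 1308, 1290 and 1243 in HT and 1487, 1374, 1248, 1256 and 1221 in WT. All 5 HT mice were below the WT mean, 3 of the WT mice lay within the HT range, and the log2 difference was -0.06 (SE 0.06, unadjusted p = 0.299). Without WT1, the highest mouse, it was -0.02 (unadjusted p = 0.729), and without HT2 and HT5 it was -0.03. Igf2r lies on chromosome 17, as does Arid1b, with 7.69 Mb between their annotated start coordinates.

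Ghr (chr15:3317760-3583492, minus strand), the receptor for growth hormone, gave 288, 356, 317.7, 283 and 292.4 in HT1 to HT5, and 296.4, 259.8, 234.8, 309.4 and 270.8 in WT1 to WT5. All 5 HT mice were above the WT mean of 274 ± 29.6 (SD, n = 5), the HT mean was 307 ± 30.3, and the ranges overlapped. The log2 difference was 0.17 (SE 0.10, 95% interval -0.04 to 0.37, unadjusted p = 0.104, adjusted p = 0.589). A fold between 0.97 and 1.29 was therefore compatible with these mice.

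Levels between genes were compared per kilobase of exon over the 10 mice. Igfbp5 stood highest at a mean of 967.5 normalised counts per kb (766.9 to 1352), followed by Igf2 at 804.6, Igfbp2 at 781.5, Igfbp7 at 693 and Igfbp4 at 665.9. Each of these 5 overlapped its neighbour in the order. A gap without overlap separated Igfbp4, with a lowest mouse of 566.5, from Igfbp3, with a highest mouse of 215.7. Igfbp3 (166), Igf2r (138.3), Igf1r (121.6) and Igf1 (101.1) again overlapped their neighbours. Ghr was the lowest at 32.13 per kb (25.94 to 39.33), with all mice below the lowest Igf1 value of 81.03. With the length of the longest coding transcript in place of all exonic bases, Igfbp2 stood first at 1104 and Ghr remained last at 69.66.

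**Figure D4:**
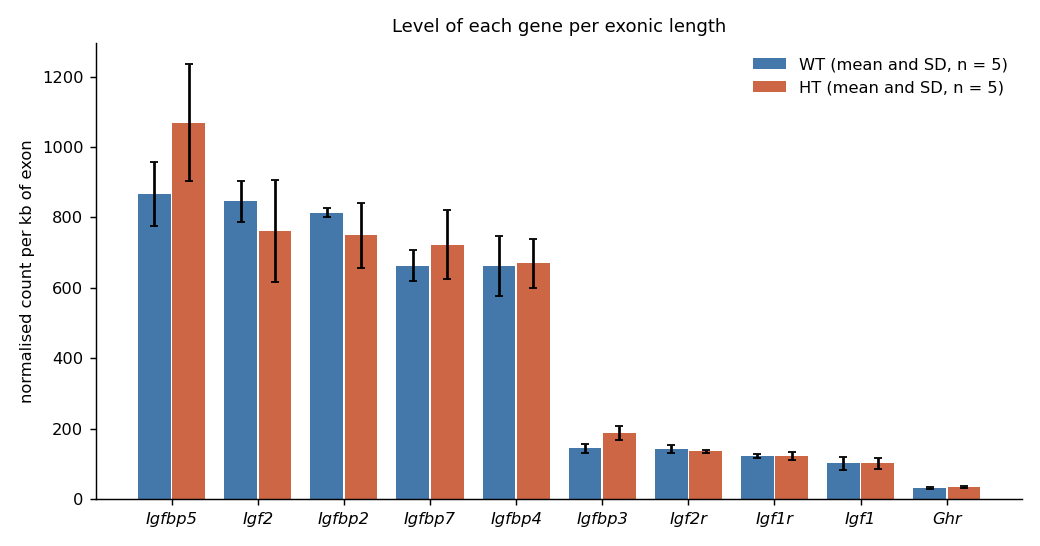
Level of each gene in normalised counts per kb of exon, shown as bars from 0 with the mean and SD of 5 WT mice (blue) and 5 HT mice (orange). The highest 5 genes have means over the 10 mice of 665.9 or more, the next 4 lie between 101.1 and 166, and Ghr is lowest at 32.13.

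Further genes of the pathway were read from 6 written lists, and none of them passed an adjusted p of 0.05. Among other ligands, receptors and carriers, 5 of 13 genes were in the table and 4 were tested; all 4 were higher in HT and 3 had an unadjusted p under 0.05, a p that 9.23% of all genes tested had in either direction and 4.71% had with a higher level in HT. Insr, the insulin receptor, was 2318 ± 112 in HT and 2123 ± 64.3 in WT (log2 difference 0.13, SE 0.04, unadjusted p = 0.0142, adjusted p = 0.482). The other pair were low and variable. Prlr, the prolactin receptor, which is related to Ghr, ranged from 6.957 to 72.02 in HT with a WT mean of 9.67 ± 3.6 (unadjusted p = 0.0175, adjusted p = 0.493). Igfbpl1, an IGFBP-like protein, was 178 ± 61 in HT and 103 ± 106 in WT (unadjusted p = 0.0256, adjusted p = 0.507). The median log2 difference of the 4 genes was 0.66, to which this low pair gave the larger values. Growth hormone itself (Gh), its releasing hormone and receptors for these releasing signals (Ghrh, Ghrhr, Ghsr), the insulin genes, Igfbp1 and Igfals were not analysed here.

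Downstream of Ghr, 16 of 16 genes were tested, with 10 higher, 6 lower and a median log2 difference of 0.06. An unadjusted p under 0.05 was found for 2 of the 16, both higher, beside 9.23% of all genes in either direction and 4.71% in this one. Socs3, a feedback inhibitor of JAK signalling, ranged from 64.67 to 138.5 in HT and from 47.4 to 68.33 in WT, which overlapped (log2 difference 0.64, SE 0.20, unadjusted p = 0.00573, adjusted p = 0.456). Ptpn6, a phosphatase of blood-derived cells, was 131 ± 21.5 in HT and 105 ± 8.4 in WT (unadjusted p = 0.0388, adjusted p = 0.516). Socs2, the feedback inhibitor best known for restraining growth hormone signalling, was 1256 ± 105 in HT and 1138 ± 80.4 in WT (log2 difference 0.14, unadjusted p = 0.0526, adjusted p = 0.543). Ptpn6 and Socs3 are also expressed by microglia, whose summed markers are given above.

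In the relay from IGF1R and the insulin receptor to mTORC1 and FOXO, all 29 genes were tested, with 12 higher, 17 lower and a median log2 difference of -0.01. Of the 29, 3 had an unadjusted p under 0.05, each higher in HT, where the shares over all genes were 9.23% in either direction and 4.71% for higher in HT. Foxo1, a transcription factor that insulin and IGF signalling keeps out of the nucleus, was 1083 ± 92.5 in HT and 885 ± 154 in WT (log2 difference 0.31, SE 0.11, unadjusted p = 0.0143, adjusted p = 0.482). Gab1, an adaptor of receptor tyrosine kinases, was 808 ± 98 and 678 ± 104 (unadjusted p = 0.0342, adjusted p = 0.511). Irs4, a docking protein of the insulin receptor substrate family, was 35.8 ± 4.2 and 27.1 ± 4.3 (unadjusted p = 0.0474, adjusted p = 0.536).

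The proteases that cut IGF-binding proteins and their stanniocalcin inhibitors gave 0 of 6 at an unadjusted p under 0.05, with 5 higher, 1 lower and a median log2 difference of 0.13. Htra1, a secreted serine protease, was 4301 ± 444 in HT and 3865 ± 370 in WT (unadjusted p = 0.0634). Pappa was 22.7 ± 9.15 and 14 ± 5.45 (unadjusted p = 0.0687), and Pappa2, which frees IGF1 from Igfbp3 and Igfbp5, was 408 ± 152 and 509 ± 199 (unadjusted p = 0.265).

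Imprinted growth genes other than Igf2 and Igf2r split evenly, with 7 higher and 7 lower among 14 tested and a median log2 difference of 0.02. Of the 14, 1 had an unadjusted p under 0.05, higher in HT (all genes, 9.23% in either direction and 4.71% higher). This was Plagl1, a zinc finger factor known to act on other imprinted genes, at 1140 ± 156 in HT and 931 ± 80.5 in WT (log2 difference 0.29, SE 0.09, unadjusted p = 0.00621, adjusted p = 0.47). Mest was 1376 ± 163 and 1537 ± 109 (unadjusted p = 0.058), and Magel2 was 148 ± 28.6 and 124 ± 31.7 (unadjusted p = 0.147). Of the IGF2 mRNA-binding proteins, Igf2bp3 was 38.5 ± 13.6 in HT and 27.1 ± 2.84 in WT, Igf2bp2 was 69.8 ± 13.8 and 85.5 ± 27.4, and neither had an unadjusted p under 0.05, whereas Igf2bp1 was too low to be tested.

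**Figure D5:**
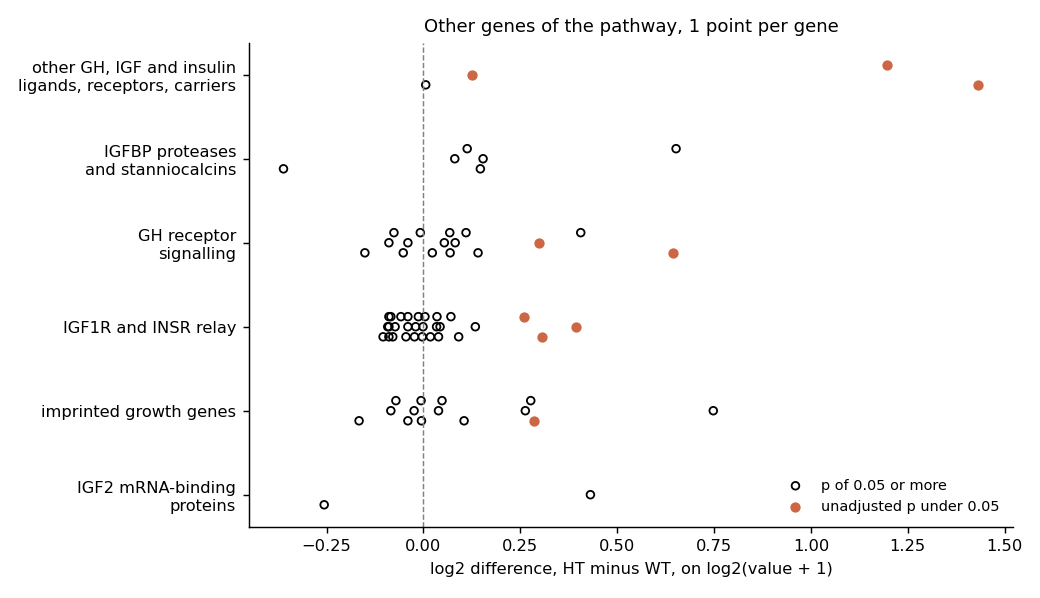
Difference between genotypes for each tested gene of 6 pathway lists, as HT minus WT on the scale of log2(normalised count + 1), 1 point per gene. Filled points have an unadjusted p under 0.05 by limma, all lie above 0, and no gene passed the adjusted threshold.

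Relations among the 10 genes were computed over the 10 mice for all 45 pairs. Each r was also taken without the 2 mice farthest from the median of the first-named gene. Mice that stood out only in the other gene stayed in. Of the 45, 4 had an unadjusted permutation p under 0.05 by Pearson r and 0 passed adjustment by either measure. Igf2 and Igfbp2 had a Pearson r of 0.881 (permutation p = 0.00328, adjusted p = 0.148) and a Spearman rho of 0.648 (permutation p = 0.0487, adjusted p = 0.421). With the group means removed r was 0.857, but without HT1 and HT3, the 2 mice farthest from the median of Igf2, it was 0.409. The relation thus rests on those 2 mice. Igfbp3 and Igfbp5 had a Pearson r of 0.73 (permutation p = 0.0131, adjusted p = 0.295) and a Spearman rho of 0.77 (permutation p = 0.0122, adjusted p = 0.421). The r was 0.659 without HT5 and WT1, and 0.407 with the group means removed. Igfbp3 and Igfbp7 had an r of 0.65 (permutation p = 0.0405, adjusted p = 0.456) and a rho of 0.6 (permutation p = 0.0733, adjusted p = 0.421). Their r was 0.654 with the group means removed. It was 0.648 without HT5 and WT1, with HT2, the highest mouse for Igfbp7, kept in. Igf1 and Igf2r ran opposite to each other, with an r of -0.659 (permutation p = 0.0295, adjusted p = 0.442) and a rho of -0.721 (permutation p = 0.023, adjusted p = 0.421). For this pair r was -0.714 with the group means removed. It was -0.643 without HT2 and WT4, with WT1, the highest mouse for Igf2r, kept in.

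The genes most like each member were searched among 13888 genes with a mean of at least 50, by Pearson r over the same 10 mice, which share the genotype groups and the library differences described above. The nearest to Igfbp3 were Ezr (r = 0.944), Havcr2 (0.94) and 5031425E22Rik (0.919), and the nearest to Igfbp5 were Tsku (0.945), Gna13 (0.944) and Tead1 (0.94). Igfbp7 lay nearest to Ets1 (0.964), Jam2 (0.957) and Wwtr1 (0.953). For the ligands, the leading genes were Cdo1 for Igf1 (0.956) and Gm48161 for Igf2 (0.949). For the receptors and the other carriers they were Utrn for Igf1r (0.928), Toe1 for Igf2r (0.936), Pde3b for Ghr (0.938), Hist2h2be for Igfbp2 (0.941) and Abhd17b for Igfbp4 (0.923). With this many genes and 10 mice, such values are a description and no test.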

How the data were processed

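Poly-A RNA was made into stranded Illumina libraries and sequenced in paired ends. The authors estimated transcript abundance with Salmon 1.1.0 on GRCm38 with GC-bias correction, summed it to genes with tximport, and divided it by DESeq2 1.30.1 size factors. What the authors deposited is thus a size-factor-scaled signal for each gene (normalised count in the text). Whole reads could not be recovered from it, since 18.9% to 37.8% of the low values per library were whole multiples of 1 step (within 0.1 of a step), and a count model was not used because depth is unknown. The use of strand in quantification and the annotation release are not given in the sources used here, so reads of Igf1, Igf2, Igf2r and Igfbp7 and of their antisense partners may not be told apart. Size-factor scaling hides any change in total RNA.

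Groups came from the sample titles. Symbols and positions were taken from GENCODE M21, which held 18205 of 18216 identifiers. Values were transformed as log2(value + 1), which understates changes of low genes, and 16781 genes with a mean of at least 10 entered a fit of genotype alone in limma 3.58.1 (R 4.3.3; lmFit and eBayes with a mean-variance trend), with Benjamini-Hochberg adjustment and 0.05 as the threshold. The code was tested on simulated data. The genes and lists were chosen with earlier results of these data known. The rule named Arid1b, the 10 genes, the 3 smallest p-values of each pathway list, and the 3 genes most like each member. Marker genes were named to give the level of their list. Pairs of genes were compared by permutation (100000 resamples, two-sided). Words of 31 bases shared between transcripts were counted on GENCODE M21. Alternatives were other pseudocounts, filters and scalings, no variance trend, sample weights, the replicate number as a block, and libraries left out. Figures were drawn with matplotlib 3.10.9 in Python 3.11.15.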

Additional observations from a re-analysis of the deposited data

How the results depend on the processing

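No IGF axis gene passed an adjusted p of 0.05 under any of the 21 alternatives, an adjusted threshold of 0.1 included, and 3 to 4 genes of all tested passed. Arid1b stayed between -0.61 and -0.56 (log2). Igfbp3 stayed between 0.28 and 0.43 and Igfbp5 between 0.18 and 0.35, with an unadjusted p under 0.05 in all 20 refits and an adjusted p of 0.276 to 0.681 and of 0.336 to 0.826. The number of IGF axis genes with an unadjusted p under 0.05 was 4 with HT2 and HT5 left out together, where Igf2 (-0.30) and Igfbp2 joined, and 2 to 4 with each mouse left out in turn, the 4 being without HT2; the cause was not tested. With sample quality weights Igfbp2 had an unadjusted p of 0.0122.

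Differences near 0 changed sign in some settings. Igf1 was 0.002 under quantile normalisation, 0.003 under upper-quartile rescaling, -0.164 without HT2 and HT5, and -0.084 to 0.079 with each mouse left out. Igf1r was 0.037 without HT2 and HT5, 0 with sample quality weights, and -0.053 to 0.021 with each mouse left out. Igfbp4 was -0.034 to 0.083 with each mouse left out. The cause was not tested.

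The titles number the mice of each genotype from 1 to 5. Deviations from the group means of same-numbered mice had correlations of -0.041 to 0.101. Their mean was 0.038, against -0.009 for mice of different numbers. Values this low cannot tell unpaired mice from mice with a weak shared effect, so any pairing is unknown. With the number as a block, Arid1b was -0.585, 3 genes and 0 IGF axis genes passed, 2 had an unadjusted p under 0.05, and Igfbp3 was 0.384 (adjusted p = 0.276). The depth is unknown, so the share of the spread that comes from counting could not be given.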
